A study of Mus musculus with 11 samples.

Results

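The 35 genes described here are immediate early genes and heat shock genes, chosen as a list of symbols and matched to Ensembl gene identifiers among the 50686 genes of the count tables. They comprise 29 early response genes in 6 classes and 6 heat shock proteins. All 35 passed the filter on low counts in bulk tumours, in TAM-MG and over all libraries, where 17028, 14872 and 21342 genes were tested.

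Immediate early genes are transcribed within minutes of a stimulus without new protein synthesis, because the factors that drive them, such as SRF with its ELK partners and CREB, are already bound or present and are switched on by kinases. Their products are mostly transcription factors, which drive a later wave of genes, and inhibitors that shut the response off again. Heat shock genes are driven by HSF1 when unfolded protein accumulates, and both programmes are known to be switched on in microglia by enzymatic dissociation of brain tissue.

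RNA was sequenced from GL261 gliomas grown in mice. GL261 is a mouse glioma line, injected into the brains of mice of 6 weeks of age 3 weeks after tamoxifen, and tumours were collected 3 weeks later. WT mice carried Rheb1 fl/fl without Cre, and Rheb1 KO mice carried Rheb1 fl/fl with Cx3cr1-CreERT2, so that tamoxifen, which both received, deletes Rheb1 in cells expressing Cx3cr1, such as microglia, and not in the tumour cells. Bulk tumours were 3 WT (libraries 35, 38 and 110) and 3 Rheb1 KO (26, 36 and 37), with RNA from fixed, paraffin-embedded tissue. TAM-MG, the tumour-associated microglia, were 2 WT (74 and 78) and 3 Rheb1 KO (54, 63 and 65), sorted as live CD11b+ CD45low cells after tumours were perfused and dissociated. The labels do not name the mouse behind each number, and p-values measure the spread between these libraries. Material and cell content differ together between bulk tumours and TAM-MG and cannot be told apart, nor can fewer cells of a type and less RNA per cell in bulk tissue.

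Libraries held 14940787 to 21991348 counts in bulk tumours and 20765767 to 29947977 in TAM-MG, with 19381 to 21330 and 15012 to 16961 genes detected. Rheb, the deleted gene, measured 348, 235 and 329 CPM (counts scaled to library size, with TMM factors set within each experiment) in bulk WT and 225, 125 and 146 in bulk KO, and 86.5 and 164 in TAM-MG WT against 67.8, 70.0 and 71.2 in KO. The groups did not overlap in either experiment. The summed CPM of 11 resting microglia markers was 787 to 1298 in bulk tumours and 11313 to 23408 in TAM-MG, and that of 10 neuronal markers was 1364 to 4195 and 36.2 to 73.2.

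The genes are short. Their median span was 3969 bases (1240 to 56539), against 23995 bases for the 15370 protein-coding genes tested over all libraries. RefSeq promoter windows (GRCm38.p6, 250 bases before to 50 after a start) were at hand for 28 of the 35. A heat shock element, GAANNTTC or TTCNNGAA, lay in 5 of the 28 (17.9%): Jun, Egr2, Hspa1a, Hspa1b and Hspb1, against 16.97% of 27025 genes. Of the 4 heat shock proteins with a window, 3 held one. The cyclic AMP response element TGACGTCA, the site of CREB and ATF factors, lay in 3 windows (10.7%), those of Maff, Dusp1 and Btg2, against 2.03% of all genes. The CArG box, the site of SRF, lay in those of Egr2 and Zfp36 (7.14%), against 1.81% of all genes. The AP-1 site, TGAGTCA or TGACTCA, was in 0 of 28, against 5.95% of all genes. Both strands were searched and no motif was required to be free of another. The 250 bases before the start are shown for the heat shock genes that differed most between TAM-MG libraries, for the early genes Dusp1 and Btg2, which stood among the largest differences between materials, and for Zfp36, each 5′ to 3′ on the gene's strand with the motif in capitals.

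Hspa1a (chr17:34972157-34972406, minus strand): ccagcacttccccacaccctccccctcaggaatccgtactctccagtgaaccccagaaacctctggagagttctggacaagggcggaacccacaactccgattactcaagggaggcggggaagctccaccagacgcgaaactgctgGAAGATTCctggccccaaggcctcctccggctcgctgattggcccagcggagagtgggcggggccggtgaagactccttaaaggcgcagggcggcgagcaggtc
Hspa1b (chr17:34959239-34959488, minus strand): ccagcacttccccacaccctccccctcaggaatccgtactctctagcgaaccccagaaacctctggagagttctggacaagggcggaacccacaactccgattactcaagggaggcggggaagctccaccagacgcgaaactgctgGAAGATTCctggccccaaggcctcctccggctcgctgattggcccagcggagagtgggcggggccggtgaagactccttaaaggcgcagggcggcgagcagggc
Hspb1 (chr5:135887669-135887918, plus strand): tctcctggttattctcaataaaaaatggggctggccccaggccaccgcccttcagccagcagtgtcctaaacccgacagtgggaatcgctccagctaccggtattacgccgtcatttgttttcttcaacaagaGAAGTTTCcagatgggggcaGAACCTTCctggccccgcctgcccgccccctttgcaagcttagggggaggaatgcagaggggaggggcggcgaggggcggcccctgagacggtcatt
Dusp1 (chr17:26508473-26508722, minus strand): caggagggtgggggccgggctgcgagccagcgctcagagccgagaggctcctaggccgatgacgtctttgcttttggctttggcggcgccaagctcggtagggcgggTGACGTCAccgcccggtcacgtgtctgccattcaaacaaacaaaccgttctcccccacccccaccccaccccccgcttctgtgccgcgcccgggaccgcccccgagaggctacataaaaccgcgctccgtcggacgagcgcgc
Btg2 (chr1:134079156-134079405, minus strand): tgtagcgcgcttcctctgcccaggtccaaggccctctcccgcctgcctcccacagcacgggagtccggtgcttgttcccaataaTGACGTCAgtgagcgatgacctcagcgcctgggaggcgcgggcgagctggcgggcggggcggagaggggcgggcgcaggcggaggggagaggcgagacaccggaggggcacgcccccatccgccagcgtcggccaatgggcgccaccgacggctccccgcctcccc
Zfp36 (chr7:28379229-28379478, minus strand): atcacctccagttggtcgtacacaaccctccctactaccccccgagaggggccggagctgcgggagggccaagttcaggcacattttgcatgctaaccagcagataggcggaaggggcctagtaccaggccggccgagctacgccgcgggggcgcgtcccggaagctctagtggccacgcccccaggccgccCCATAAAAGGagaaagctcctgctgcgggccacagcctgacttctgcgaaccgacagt

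The windows of Hspa1a and Hspa1b were identical at 296 of 300 positions, and both held GAAGATTC 104 bases before the start. Hspb1 held a heat shock element at 117 and another at 97 bases before its start. The response element stood 143 bases before the start of Dusp1 and 166 before that of Btg2, and the CArG box 58 bases before that of Zfp36. A match is a description of the letters only. The transcripts of some members share sequence with other genes, and reads there cannot be assigned with certainty. Of 75-base stretches, the read length, 61.7% in Hspa1a and 55.8% in Hspa1b were found in another gene, mostly in each other. The share was 46.4% in Hspb1, 42.8% in Hsp90aa1 and 33.0% in Hspa8, all with pseudogenes among the partners. It was 45.9% in Jund, whose partner is the antisense gene Gm11175, 16.7% in Cebpb, which overlaps Tmem189, and 13.1% in Cebpd, which overlaps Spidr, and the library kit keeps no strand. Values of these 8 genes are uncertain to that extent.

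The first comparison asked how far the genes' levels differ between the sorted cells and the tumour tissue. The 29 early response genes took 0.136 to 0.226% of all counts in the 6 bulk libraries. In TAM-MG they took 2.75% in WT 74, 0.6997% in WT 78 and 1.79, 1.91 and 1.61% in the KO libraries 54, 63 and 65. Every TAM-MG library was above every bulk library. The 6 heat shock genes took 0.0872 to 0.160% in bulk tumours and 0.271 to 0.623% in TAM-MG, again without overlap. The CPM given below are scaled within each experiment, while folds and overlap between materials were computed on a scale common to the 11 libraries.

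**Figure D1:**
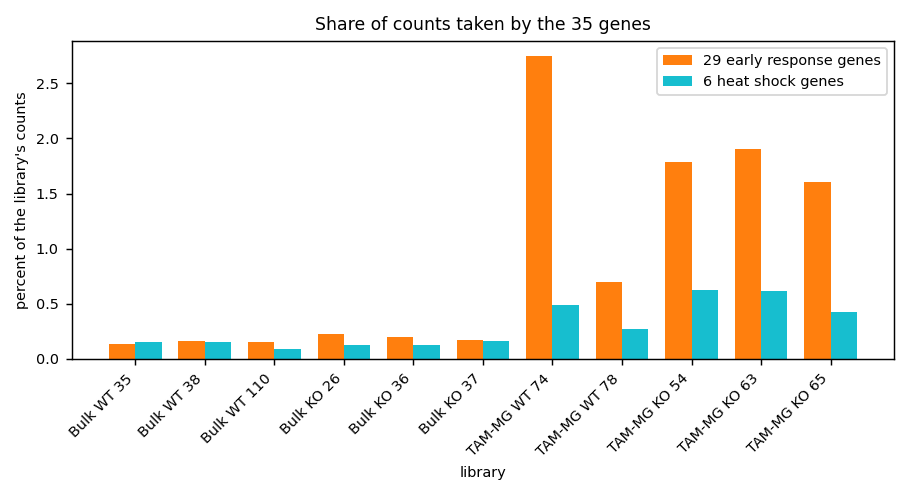
Percent of each library's counts (vertical axis) in the 29 early response genes and the 6 heat shock genes, one pair of bars per library. TAM-MG WT 74 reaches 2.75% and TAM-MG WT 78 0.6997% for the early response genes, while the 6 bulk libraries lie between 0.136 and 0.226%.

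In the test over 11 libraries (edgeR's quasi-likelihood test, with calls at 1.5-fold and an adjusted p below 0.05), 25 of the 35 genes were higher in TAM-MG, where 20.5% of all tested genes were, and 4 were lower, where 32.4% of all tested genes were. The median log2 fold change of the 35 was 2.74, against -0.89 for all tested genes. Scaled by library size only, these medians became 2.20 and -1.45, a distance of 3.65 in place of 3.64. For 22 of the 35 genes all TAM-MG libraries lay above all bulk libraries, and for 0 of them below, against 14.6 and 20.2% of all tested genes. Among all tested genes, 38.7% of the calls were higher in TAM-MG with TMM scaling and 27.7% with library size only. With library size only, 24 of the 35 were called higher and 5 lower, against 3285 and 8562 of the 21342 tested genes.

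**Figure D2:**
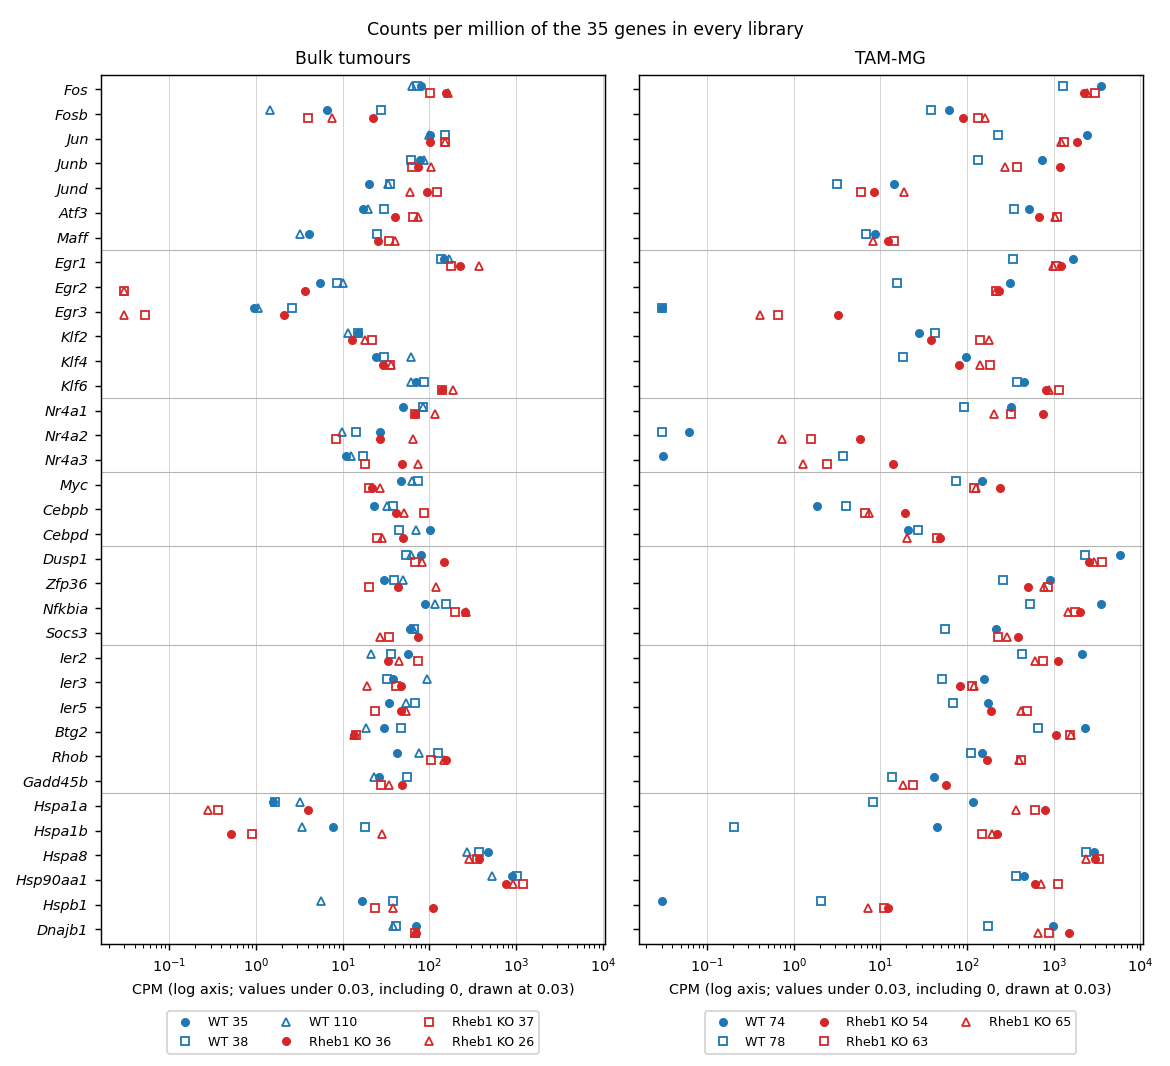
CPM of the 35 genes (rows, in 7 classes separated by lines) in each bulk library (left) and each TAM-MG library (right), on a log axis; marker shapes name the library, blue WT and red Rheb1 KO. Fos, Dusp1 and Nfkbia lie above 500 CPM in every TAM-MG library and below 300 in every bulk library, and WT 78 is the leftmost TAM-MG point for 29 genes.

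Of the AP-1 genes, whose proteins pair into the dimers that bind AP-1 sites, 5 of 7 were higher in TAM-MG. Fos measured 79.2, 72.2 and 63.3 CPM in bulk WT, 163, 154 and 102 in bulk KO, 3517 and 1269 in TAM-MG WT, and 2239, 2988 and 2449 in TAM-MG KO. The lowest TAM-MG library was thus several times above the highest bulk library, and the log2 fold change was 5.19 ± 0.30 (SE, n = 5 and 6, edgeR adjusted p = 1.16e-06). Atf3, a stress-induced repressor, differed by 4.70 ± 0.29, Jun by 4.02 ± 0.48, Fosb by 3.36 ± 0.69 and Junb by 3.29 ± 0.48 on the log2 scale. Jund, the AP-1 subunit that is present in resting cells, went the other way. Its CPM was 20.3 to 123 in bulk tumours and 3.20 to 19.0 in TAM-MG, a log2 fold change of -1.84 ± 0.51 (edgeR adjusted p = 0.0123), with the antisense overlap above. Maff, a small partner without a transactivation domain, differed by -0.42 ± 0.63 and did not pass.

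Among zinc finger factors, 5 of 6 were higher in TAM-MG. Egr2, which is induced in activated myeloid cells, was at 5.50, 8.67 and 10.05 CPM in bulk WT and at 0, 3.71 and 0 in bulk KO, against 312 and 15.7 in TAM-MG WT and 235, 218 and 218 in TAM-MG KO. Its log2 fold change was 6.48 ± 1.12 (edgeR adjusted p = 0.000823). Egr1, the best known serum-induced gene of this family, differed by 2.97 ± 0.37, Klf6 by 3.12 ± 0.21, Klf2 by 2.63 ± 0.40 and Klf4 by 1.85 ± 0.43, a value that was 0.91 and no longer passed without TAM-MG WT 74. DESeq2 gave Egr2 a log2 fold change of 6.28 and no adjusted p. Egr3 was low in both materials, with 0 counts in both TAM-MG WT libraries and at most 3.21 CPM in any library.

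The NR4A receptors, which act without a known ligand, were split. Nr4a1 was higher in TAM-MG by 2.48 ± 0.41 on the log2 scale, with 40.2 to 97.5 CPM in bulk tumours and 113 to 929 in TAM-MG on the common scale. Nr4a2 was at 8.43 to 65.5 CPM in bulk tumours and at 0.0624, 0, 5.84, 1.57 and 0.735 in TAM-MG WT 74 and 78 and KO 54, 63 and 65, and passed as lower (edgeR adjusted p = 0.00147); its WT libraries held 2 counts in all, so no fold is given. Nr4a3 was at 10.95 to 74.3 and at 0.0312 to 14.0 CPM, and its log2 fold change of -2.35 ± 1.02 did not pass (edgeR adjusted p = 0.0691), while it passed without TAM-MG KO 54 (-3.31) or without TAM-MG WT 78 (-5.36). For Nr4a2 the call was lost in the test on TPM.

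Myc, the growth-promoting factor, was higher in TAM-MG by 2.40 ± 0.29 on the log2 scale (edgeR adjusted p = 8.3e-05). Cebpb, a driver of inflammatory genes in macrophages, was lower by 2.34 on that scale (-2.34 ± 0.51), with 22.7 to 86.7 CPM in bulk tumours and 1.84 to 19.4 in TAM-MG. Its relative Cebpd differed by -0.14 ± 0.38. Both overlap other genes, as given above.

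All 4 feedback inhibitors were higher in TAM-MG. Dusp1, the phosphatase that inactivates p38 and JNK, measured 79.7, 53.5 and 61.7 CPM in bulk WT and 82.8, 149 and 67.9 in bulk KO. In TAM-MG it measured 5775 and 2300 in WT and 2553, 3637 and 2894 in KO, a log2 fold change of 6.01 ± 0.34 (edgeR adjusted p = 1.09e-06). By TPM, which is per transcript length, Dusp1 was the most abundant of the 35 genes in TAM-MG WT, with a mean of 3020, ahead of Hspa8 at 2335 and Nfkbia at 2174, though WT 74 and WT 78 were so far apart that this order is within their spread. Zfp36, which degrades cytokine mRNAs, differed by 4.27 ± 0.49, Nfkbia, the inhibitor of NF-κB, by 4.03 ± 0.41, and Socs3, the inhibitor of STAT3 signalling, by 2.48 ± 0.38.

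Of the 6 other early response genes, 5 were higher in TAM-MG. Btg2, an antiproliferative cofactor of mRNA decay, was at 30.02, 47.4 and 18.7 CPM in bulk WT, 13.5, 13.5 and 14.1 in bulk KO, 2319 and 656 in TAM-MG WT, and 1071, 1555 and 1592 in TAM-MG KO. Its log2 fold change of 6.67 ± 0.40 (edgeR adjusted p = 1.2e-06) was the second largest of the 35, and its standard error overlaps that of Egr2. Ier2 differed by 5.12 ± 0.46, Ier5, which is known as a target and regulator of HSF1, by 2.74 ± 0.38, Ier3 by 1.82 ± 0.40 and Rhob, an inducible small GTPase, by 1.54 ± 0.34. Gadd45b, a stress gene upstream of p38, was at 23.2 to 55.0 CPM in bulk tumours and 13.5 to 56.8 in TAM-MG and did not pass.

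Of the heat shock genes, 4 of 6 were higher in TAM-MG and 1 was lower. Hspa1a, an inducible HSP70, was at 1.56, 1.66 and 3.25 CPM in bulk WT and 0.282, 4.03 and 0.366 in bulk KO. In TAM-MG it was at 117 and 8.27 in WT and 803, 610 and 364 in KO, and every TAM-MG library lay above every bulk library. The log2 fold change was 7.27 ± 0.88 (edgeR adjusted p = 7.7e-05). Hspa1b, its near-identical neighbour on chromosome 17, differed by 3.29 ± 1.15 (edgeR adjusted p = 0.0327), a value that rested on 1 library: without TAM-MG WT 74 it was -0.20, since WT 78 held 4 counts of this gene, and the call was lost with 7 of the other 10 libraries left out in turn. With both genes summed the log2 fold change was 5.02 ± 0.88 (edgeR adjusted p = 0.00088). Dnajb1, the HSP40 co-chaperone, differed by 4.27 ± 0.43 and Hspa8, the constitutive HSC70, by 3.53 ± 0.21. Hsp90aa1, an inducible HSP90, differed by -0.03 ± 0.25, with 525 to 1211 CPM in bulk tumours and 369 to 1131 in TAM-MG. The small chaperone Hspb1 was lower in TAM-MG, with 5.55 to 109 against 0 to 12.1 CPM (-2.81 ± 1.02, edgeR adjusted p = 0.0369), a call that was lost without bulk WT 38 (-2.58) or without bulk KO 36 (-2.37).

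**Figure D3:**
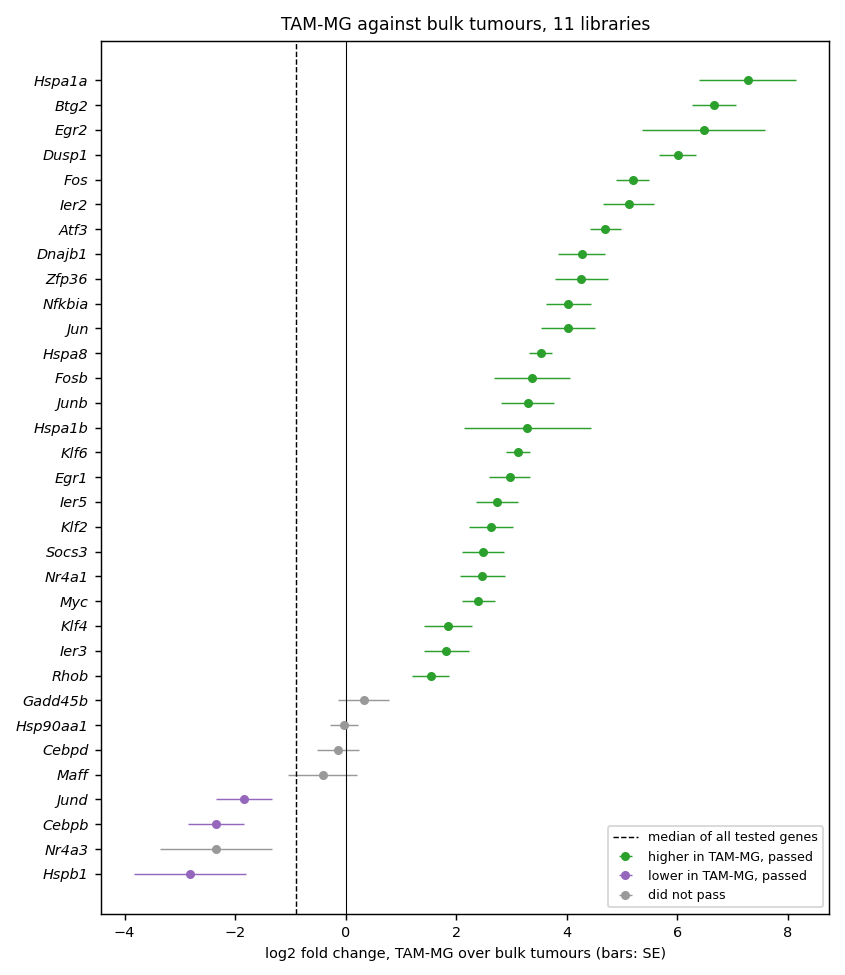
Log2 fold change with its standard error of TAM-MG over bulk tumours, fitted over 11 libraries, for 33 genes in order of size; the dashed line is the median of all tested genes at -0.89. Egr3 and Nr4a2 are left out because TAM-MG WT held 0 and 2 counts. Hspa1a at 7.27 and Btg2 at 6.67 stand at the top, and Hspb1 at -2.81 at the bottom.

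Within WT alone 20 of the 35 were called higher and 2 lower in TAM-MG, against 11.5 and 15.8% of all tested genes. Within KO alone the counts were 25 and 2, against 14.9 and 18.2%. The test on TPM, in which 33 of the 35 genes had values in both materials (not Hspa1a and Hspa8), called 22 higher and 4 lower, against 16.1 and 41.8% of the 12693 genes in that test, and gave the same sign for 32 of 33, Gadd45b being the exception. RNA was extracted with a different kit for each material, which likewise cannot be told apart from the difference in cells.

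The 2 WT libraries of TAM-MG were far apart for these genes. WT 78 was the lowest library for 29 of the 35 (82.9%), where it was the lowest for 19.8% of all tested genes, and the highest for 0. WT 74 was the highest for 10 of the 35 (28.6%), against 21.0% of all tested genes. The median ratio of WT 74 to WT 78, with its direction kept, was 2.77-fold over the 35 genes. Over all tested genes it was 1.0-fold, where ratios up and down balance, so that value does not measure how far apart these libraries were. The ratio exceeded 4-fold, with WT 74 the higher, for 11 of the 35 (31.4%), against 10.1% of all tested genes. The 3 KO libraries lay closer together for these genes than WT 74 and WT 78 did. Their median range from lowest to highest, which carries no direction, was 1.85-fold, against 2.23-fold over all tested genes.

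Jun shows the split between the WT libraries. It measured 2415 CPM in WT 74 and 230 in WT 78, a ratio of 10.5, and 1875, 1299 and 1203 in KO 54, 63 and 65, all of which lie between the 2 WT libraries. Egr2 had a ratio of 19.9, Nfkbia of 6.505, Dnajb1 of 5.60, Junb of 5.56, Klf4 of 5.30, Ier2 of 4.92 and Egr1 of 4.91. Hspa1a had a ratio of 14.2 between 117 and 8.27 CPM. A minority ran the other way, with Klf2 at 0.656, Cebpb at 0.462 and Cebpd at 0.770 of the level in WT 78, and Nr4a3 at 0.0312 CPM in WT 74 against 3.67 in WT 78. WT 78 had the fewest counts of the TAM-MG libraries (20765767) and WT 74 the most (29947977), and 2.23 and 1.05% of their counts were mitochondrial. In KO 54, 63 and 65 the mitochondrial share was 1.26, 2.22 and 2.02%. The part of total counts and mitochondrial share in the split was not tested.

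**Figure D4:**
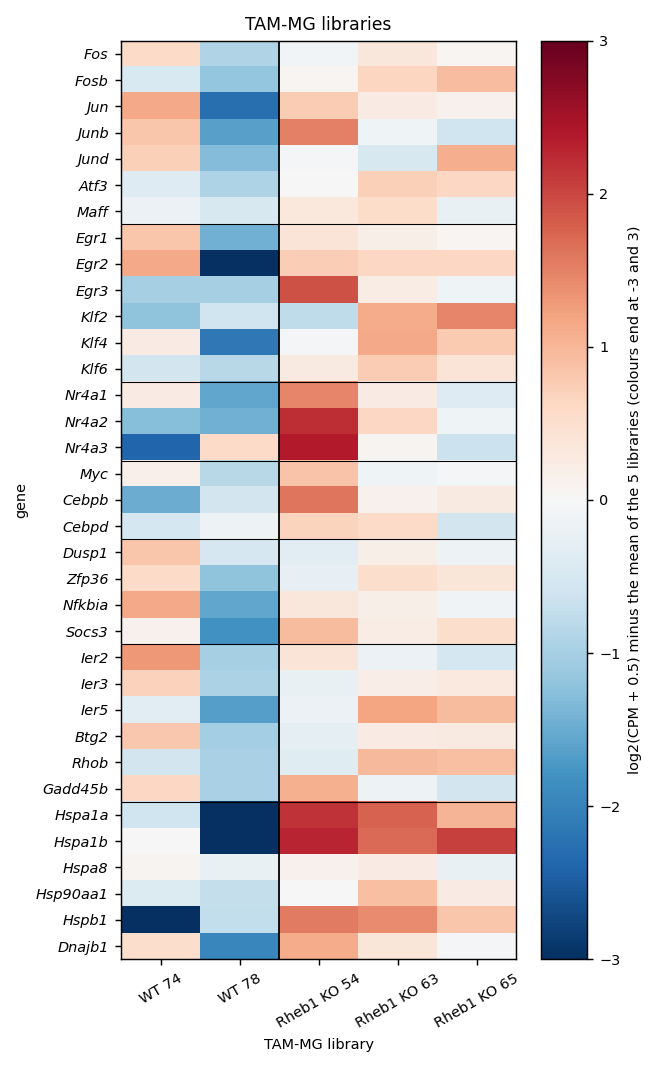
Log2(CPM + 0.5) of each gene (rows) in each TAM-MG library (columns, 2 WT left of the line and 3 Rheb1 KO right of it) minus its mean over the 5 libraries, blue low and red high. WT 78 is blue in nearly every row, while WT 74 is red for Jun, Egr2, Nfkbia and Ier2 and blue for Hspb1, Nr4a3 and Cebpb.

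The second comparison asked whether the genes differ between Rheb1 KO and WT TAM-MG. No member was called, as no gene of the 14872 tested was (0.0%). At an unadjusted p under 0.05, 10 of the 35 were higher in KO and 0 were lower, against 5.47 and 2.3% of all tested genes. In 13 of the 35 all KO libraries lay above both WT libraries and in 0 below, against 14.6 and 11.5% of all tested genes. The median log2 fold change was 0.80 over the 35 genes, with 31 above 0, and 0.08 over all tested genes. Egr3, Nr4a2, Nr4a3, Hspa1b and Hspb1 reached the filter on low counts only through the KO libraries, which favours a higher value in KO. Among the other 30 genes, 8 were higher at an unadjusted p under 0.05 and 0 lower, 9 did not overlap, and the median was 0.57. When libraries were scaled to the same mean log CPM, the median of all tested genes became -0.41 and that of the 35 genes 0.22. The distance was thus 0.63 in place of 0.72. Of the 35, 21 were above 0 and 2 were higher at an unadjusted p under 0.05, and the share of all tested genes under this scaling is not given.

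These counts rested on which WT library was set against the KO libraries. All 3 KO libraries lay above WT 78 for 32 of the 35 genes (91.4%, where 28.8% of all tested genes did) and below it for 0. Against WT 74, all KO libraries lay above for 15 of the 35 (42.9%, against 30.3% of all tested genes) and below for 10 (28.6%, against 26.7%), namely Fos, Jun, Egr1, Egr2, Dusp1, Zfp36, Nfkbia, Ier2, Ier3 and Btg2. Without WT 74, the log2 fold changes of Dusp1, Nfkbia, Ier2 and Btg2 turned from below to above 0. Without WT 78, those of Fos, Jun, Junb, Jund, Egr1, Egr2, Zfp36, Ier3, Gadd45b and Hspa8 turned from above to below 0. Each of these fits has a lone WT library, so no count by p is given for them. Without KO 63 and without KO 65, 3 and 5 genes were higher at an unadjusted p under 0.05, and the share of all tested genes in these fits is not given.

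Of the 6 heat shock genes, 4 were without overlap higher in KO, where 14.6% of all tested genes were. Among these 4 were Hspa1b and Hspb1, which passed the filter through KO only. Hspa1a, at 803, 610 and 364 CPM in KO against 117 and 8.27 in WT, had a log2 fold change of 3.24 ± 1.12 (n = 3 and 2, edgeR adjusted p = 0.552, unadjusted p = 0.0278 in that test). Hspa1b was at 224, 150 and 192 in KO and 45.4 and 0.207 in WT, 3.04 ± 1.64 on the log2 scale, and the sum of both genes differed by 3.19 ± 1.19 (edgeR adjusted p = 0.552). Every KO library was at least 3.11-fold above WT 74 for Hspa1a and 3.30-fold for Hspa1b. Hspb1 was at 12.1, 10.9 and 7.15 CPM in KO and at 0 and 2.07 in WT, with 3.29 ± 2.15 on the log2 scale. Hsp90aa1 was at 610, 1131 and 719 against 456 and 369 CPM, a difference of 0.99 ± 0.35. Dnajb1 and Hspa8 overlapped between the groups, at 663 to 1493 against 176 and 986 CPM and at 2372 to 3297 against 2352 and 2926.

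Of the AP-1 genes, Fosb and Atf3 did not overlap. Fosb was at 89.5, 134 and 163 CPM in KO and 61.8 and 38.2 in WT (1.36 ± 0.40 on the log2 scale, edgeR adjusted p = 0.502). Atf3 was at 670, 1099 and 1040 in KO and 516 and 352 in WT (1.11 ± 0.35, edgeR adjusted p = 0.507). Fos was at 2239 to 2988 CPM in KO, between WT 78 at 1269 and WT 74 at 3517, and its log2 fold change was 0.10 ± 0.46. For Jun the value was 0.14 ± 0.87, for Junb 0.49 ± 0.91, for Jund 0.33 ± 1.06 and for Maff 0.59 ± 0.81.

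Klf6 was the early gene with the smallest p in TAM-MG. It measured 805, 1140 and 872 CPM in KO and 455 and 374 in WT, a log2 fold change of 1.18 ± 0.29 (edgeR unadjusted p = 0.00629, adjusted p = 0.502). DESeq2, run as an alternative, called Klf6, Hspa1a and Atf3 higher in KO, with adjusted p values of 0.00166, 0.00723 and 0.0402, where it called 3.21% of all tested genes, and edgeR's likelihood ratio test called 0 of the 35, where it called 1.65% of all tested genes. Klf2 was at 38.2, 141 and 179 CPM in KO against 27.8 and 42.4 in WT (1.77 ± 0.69). It overlapped only through KO 54, the library in which Ier5 and Rhob were also lowest of the 3 KO libraries. Klf4 was at 1.22 ± 0.75, Egr1 at 0.10 ± 0.63 and Egr2 at 0.45 ± 1.03 on the log2 scale.

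Egr3 held 72, 17 and 10 counts in KO and 0 in both WT libraries. The TPM table lists it at 14.3, 12.7 and 18.0 in KO and at 1.99 and 1.31 in WT, so that the 2 quantifications of this gene differ. Nr4a2 held 131, 41 and 18 counts in KO and 2 and 0 in WT. Both genes were near 1 CPM or below in KO 65, and KO 54 held most of their counts. They reached the filter on low counts only through the KO libraries, so no fold between genotypes is given for them. Nr4a1 was highest in KO 54 at 743 CPM, with 318 and 207 in the other KO libraries and 320 and 91.2 in WT. Nr4a3, at 14.0, 2.46 and 1.27 in KO and 0.0312 and 3.67 in WT, overlapped.

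Ier5 was at 188, 487 and 416 CPM in KO and 172 and 68.4 in WT (1.60 ± 0.58), and Rhob at 168, 421 and 402 against 148 and 110 (1.36 ± 0.47). Cebpb, at 19.4, 6.64 and 7.39 against 1.84 and 3.98, and Socs3, at 384, 229 and 286 against 216 and 55.6, did not overlap either, with log2 fold changes of 1.94 ± 1.10 and 1.14 ± 0.60. Myc differed by 0.54 ± 0.47 and Cebpd by 0.66 ± 0.53. The remaining inhibitors and early genes stood close to 0 or below: Dusp1 at -0.42 ± 0.44, Nfkbia at -0.20 ± 0.72, Zfp36 at 0.31 ± 0.56, Ier2 at -0.63 ± 0.66, Btg2 at -0.08 ± 0.55, Ier3 at 0.02 ± 0.51 and Gadd45b at 0.26 ± 0.74. Beside these values, 7 of the 11 resting microglia markers were without overlap higher in KO, where 14.6% of all tested genes were. Their summed CPM was 11313 and 11834 in WT and 17217 to 23408 in KO. The sums of granulocyte markers (208 and 302 against 377 to 411) and endothelial markers (59.9 and 89.4 against 104 to 131) were also higher in KO, but the single markers were split. Of 4 tested granulocyte markers 2 were higher and 2 lower (median log2 fold change -0.01). Of 6 tested endothelial markers 3 were higher and 3 lower (median -0.41), without overlap for 1 higher and 2 lower. The 14 microglia and macrophage markers were split, with 8 higher and 6 lower (median 0.04), 1 of them without overlap. Of 8 tested markers of monocytes and macrophages from blood, 1 was higher and 7 lower (median -0.59), 1 of them without overlap. The defining granulocyte genes Ly6g, Mpo and Elane were at 0 in all 5 libraries, and the part of these markers in the differences was not tested.

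**Figure D5:**
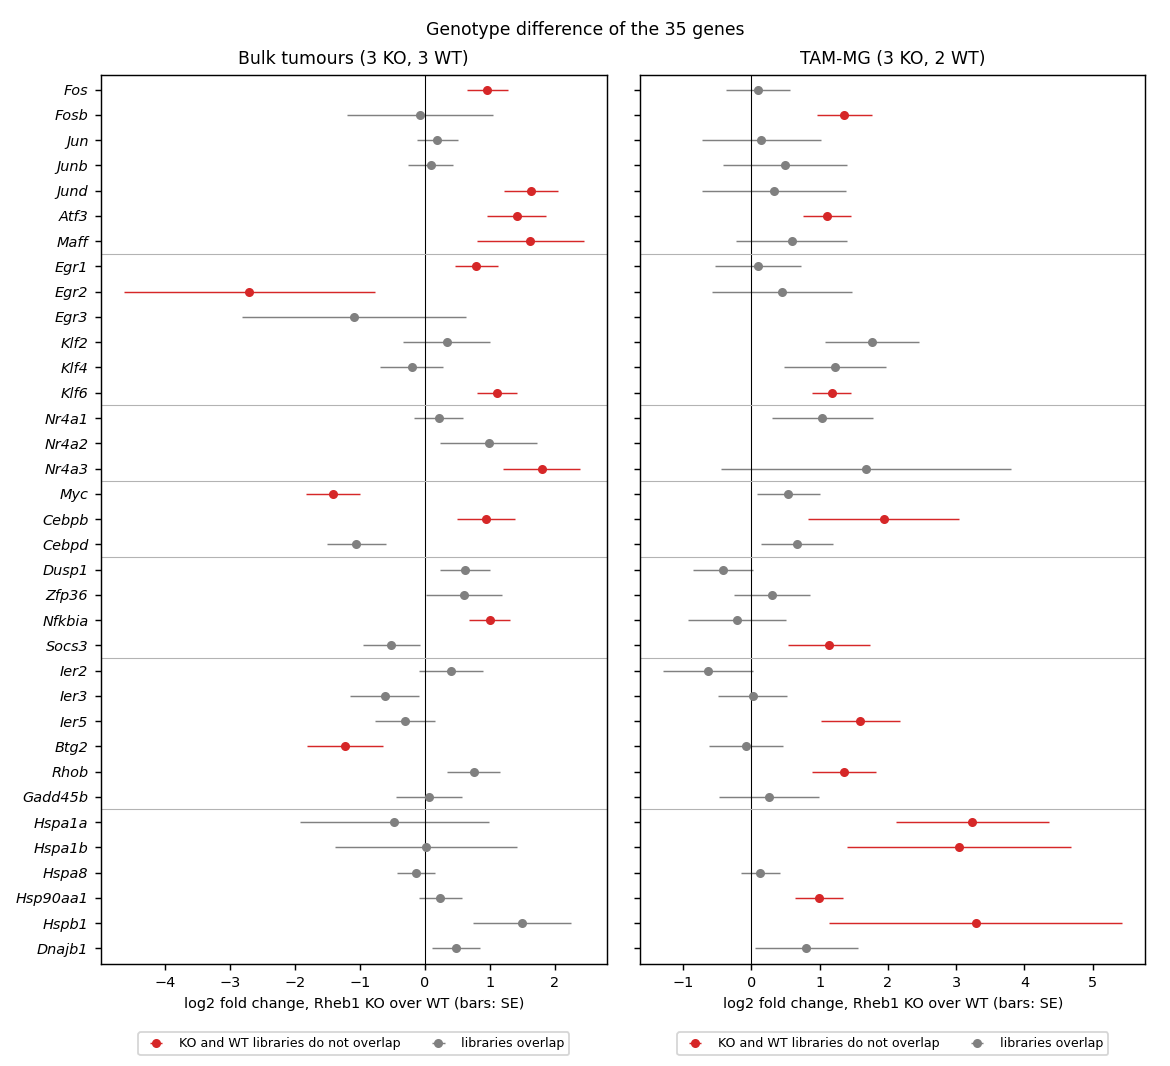
Log2 fold change of Rheb1 KO over WT with its standard error for each gene in bulk tumours (left, 3 against 3) and TAM-MG (right, 3 against 2); red points are genes whose KO and WT libraries do not overlap. In TAM-MG the 3 genes Hspa1a, Hspa1b and Hspb1 lie above 3, and Egr3 and Nr4a2 are not drawn because WT held 0 and 2 counts; in bulk tumours Myc at -1.41 and Nr4a3 at 1.80 lie on opposite sides.

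The same question was put to bulk tumours. No member was called there, again as no gene of the 17028 tested was (0.0%). At an unadjusted p under 0.05, 7 of the 35 were higher in KO and 2 lower, against 3.82 and 5.19% of all tested genes. KO and WT did not overlap for 9 genes that were higher in KO and 3 that were lower, against 7.82 and 9.23% of all tested genes. The median log2 fold change was 0.24 over the 35, with 23 above 0, and 0.00 over all tested genes. Egr2, Egr3, Hspa1a and Hspa1b reached the filter only through the WT libraries, and leaving these genes out, 7 were higher and 2 lower by unadjusted p, and 9 and 2 did not overlap. The count lower was 1 without WT 35 or without KO 37 and 5 without KO 36, and the share of all tested genes in these fits is not given.

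AP-1 genes made up 4 of the 9 that were without overlap higher in KO, where 7.82% of all tested genes were. Jund was at 59.0, 94.3 and 123 CPM in KO and 20.3, 34.7 and 33.7 in WT, with a log2 fold change of 1.64 ± 0.42 (n = 3 and 3, edgeR unadjusted p = 0.0024, adjusted p = 0.206). The likelihood ratio test called it (adjusted p = 0.0234), where 2.25% of all tested genes were called, and it was the only member so called. DESeq2 called Jund and Klf6 (adjusted p = 0.0158 and 0.0473), where 2.78% of all tested genes were called. Atf3 was at 72.9, 40.5 and 64.7 CPM in KO and 17.2, 30.1 and 19.4 in WT (1.42 ± 0.46), and Fos, with the values above, differed by 0.96 ± 0.32. Maff was at 40.0, 25.6 and 33.8 against 4.11, 24.8 and 3.18, where WT 38 came close to the lowest KO library. Jun (0.19 ± 0.32), Junb (0.10 ± 0.35) and Fosb (-0.07 ± 1.12) overlapped.

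Klf6 was at 188, 141 and 141 CPM in KO and 69.5, 87.4 and 60.7 in WT, a log2 fold change of 1.11 ± 0.31 (edgeR adjusted p = 0.23). Egr1 was at 376, 228 and 177 against 146, 137 and 168 (0.80 ± 0.33). Egr2 went the other way at 0, 3.71 and 0 against 5.50, 8.67 and 10.05, with -2.70 ± 1.93. Nr4a3 was at 74.3, 48.0 and 18.3 in KO and 10.95, 17.03 and 12.4 in WT (1.80 ± 0.60), and Nr4a1 and Nr4a2 overlapped. Nfkbia was at 264, 255 and 195 against 88.3, 154 and 115 (1.0 ± 0.31), while Dusp1 (0.62 ± 0.38), Zfp36 (0.60 ± 0.58) and Socs3 (-0.51 ± 0.44) overlapped.

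Myc was lower in every KO tumour, at 26.6, 22.1 and 20.0 CPM against 47.4, 73.0 and 62.7, with a log2 fold change of -1.41 ± 0.42 (edgeR unadjusted p = 0.00607, adjusted p = 0.268). Cebpd was at 28.7, 49.9 and 24.8 against 101, 44.5 and 69.6 (-1.06 ± 0.45) and overlapped. Cebpb, at 50.8, 41.7 and 86.7 against 22.7, 37.8 and 32.6, did not overlap (0.94 ± 0.44). Btg2 was at 13.5, 13.5 and 14.1 in KO and 30.02, 47.4 and 18.7 in WT (-1.23 ± 0.59), and none of the other 5 early response genes separated the genotypes.

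Heat shock genes did not separate the bulk genotypes either: 0 of 6 were without overlap, against 7.82% higher and 9.23% lower of all tested genes. Hspa8 was at 288 to 376 CPM in KO and 273 to 469 in WT, and Hsp90aa1 at 759 to 1211 and 525 to 1022. Hspa1a was at or below 4.03 CPM in all 6, and Hspb1, at 37.7, 109 and 23.6 in KO and 16.9, 37.8 and 5.55 in WT, differed by 1.5 ± 0.75. Beside the bulk values, the 14 microglia and macrophage markers were all lower in KO, 10 of them without overlap, where 9.23% of all tested genes were. Their summed CPM was 725 to 1504 against 2240 to 3959. The sums for monocytes and macrophages from blood (66.9 to 177 against 301 to 837), for T and NK cells (3.86 to 22.03 against 36.9 to 103), for B cells (3.74 to 17.1 against 23.9 to 99.1) and for granulocytes (1.12 to 12.8 against 17.2 to 31.4) were lower in KO too. Of 8 endothelial markers 5 were higher and 3 lower (median log2 fold change 0.52). Of 10 neuronal markers 8 were higher and 2 lower (median 0.30), 0 of them without overlap. The neuronal sum was 3923, 4195 and 1364 in KO 26, 36 and 37 and 2160 to 2861 in WT. The part of all these markers in the genotype differences was not tested. Of the 25 genes called higher in TAM-MG, Fos, Atf3, Egr1, Klf6 and Nfkbia were without overlap higher in the KO tumours, and Myc and Btg2 lower. The shares of all tested genes were 7.82% higher and 9.23% lower. Egr2 was without overlap lower too, but it reached the filter on low counts only through the WT libraries, which favours a lower value in KO.

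An interaction term over 11 libraries tested if KO and WT differed to another extent in TAM-MG than in bulk tissue. No member was called, where 0.225% of all tested genes were. At an unadjusted p under 0.05, 7 of the 35 were higher in TAM-MG (Myc, Cebpd, Socs3, Ier5, Hspa1a, and Egr3 and Nr4a2 with their near-empty TAM-MG WT libraries) and 0 lower, against 9.3 and 2.93% of all tested genes. Myc had the smallest p, with a difference of 2.00 ± 0.59 on the log2 scale (edgeR unadjusted p = 0.00561, adjusted p = 0.254), the separate fits having given -1.41 in bulk tumours and 0.54 in TAM-MG. For Hspa1a the difference was 3.77 ± 1.52 and for Ier5 1.96 ± 0.74. The count higher was 4 without bulk WT 110 or without bulk KO 37, and the count lower was 1 without bulk WT 38. The share of all tested genes in these fits is not given. Without TAM-MG WT 74 the sign of the difference changed for Fos, Jund, Atf3, Egr1, Zfp36, Nfkbia and Ier2. Without TAM-MG WT 78 it changed for Jun, Junb, Nr4a3, Gadd45b and Dnajb1.

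Atf3, Klf6 and Cebpb, 3 of the 35, were without overlap higher in KO in both experiments, as were 139 (1.1%) of the 12667 genes tested in both. These experiments share no library. For Klf6 the log2 fold changes were 1.11 and 1.18, for Atf3 1.42 and 1.11, and for Cebpb 0.94 and 1.94. The test on TPM gave the same sign as that on counts for 32 of 34 genes in TAM-MG and 27 of 33 in bulk tumours.

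Of 146 other genes of these pathways in 5 lists, none was called between genotypes in either experiment. Between materials the lists differed, where 20.5% of all tested genes were called higher in TAM-MG and 32.4% lower. Of 17 AP-1 partners 6 were higher in TAM-MG and 7 lower, with a median log2 fold change of -0.68. Batf3 was higher by 3.71 ± 0.64 and Nfe2l2, the regulator of antioxidant genes, by 2.66 ± 0.29, Fosl2 differed by -0.35 ± 0.35, and Atf5 by -2.92 ± 0.47. Of 40 other immediate early genes 17 were higher and 12 lower (median 0.39). Those higher included Rgs1 (6.21 ± 0.60), Tnfaip3 (5.41 ± 0.41), an inhibitor of NF-κB, and Ppp1r15a (5.26 ± 0.53), while the neuronal genes Arc, Egr4 and Npas4 were lower, with 0 counts in TAM-MG WT. Arc held 146 counts in the 3 KO libraries of TAM-MG and Npas4 held 0.

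The 29 upstream kinases and factors had a median of -0.81, with 7 higher and 12 lower, beside the same 20.5 and 32.4% of all tested genes. Rps6ka1, a kinase downstream of ERK, was higher by 4.33 ± 0.28, while Srf differed by -1.31 ± 0.51 and Elk1 was at 0 in TAM-MG WT. Of 40 other heat shock and chaperone genes 13 were higher and 9 lower (median -0.05). Hsf1 differed by -0.67 ± 0.48 and did not pass, Hsf2 by -1.74 ± 0.33, and Tcp1, a subunit of the cytosolic chaperonin, by 2.47 ± 0.29. Among 20 ER chaperones and unfolded protein response genes 15 were higher and 2 lower (median 2.20), among them Herpud1 (4.12 ± 0.24), Pdia3 (4.11 ± 0.24), Xbp1 (3.26 ± 0.24) and Hspa5 (2.52 ± 0.20), while Hyou1 was lower (-3.05 ± 0.49). In TAM-MG, the 40 other immediate early genes held 10 of 37 tested without overlap higher in KO and 0 lower, against 14.6 and 11.5% of all tested genes. This count was not repeated without genes that reached the filter on low counts only through the KO libraries, such as Arc with 0 counts in WT. Passing in that way favours a higher value in KO. The other heat shock genes held 3 higher and 9 lower of 40, against 14.6 and 11.5% of all tested genes. Their median log2 fold changes there were 0.49 and -0.05, against 0.80 for the 35 genes. Hsf1 differed between genotypes by 0.30 ± 0.49 and Hspa4 by -0.45 ± 0.23 in TAM-MG. In bulk tumours the medians of the 5 lists lay between -0.37 and 0.28.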

How the data were processed

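RNA-seq was made by SmartSeq2 and NexteraXT with 75 bp paired ends. The authors deposited counts per gene from STAR and TPM values from Salmon, both on Ensembl GRCm38 release 90; tool versions are not given in the sources used here. The deposited TPM of bulk tumours cover 12719 genes. An unnamed row equal to the total of the TAM-MG tables was left out. Of 50686 identifiers 50376 had a symbol. The 35 genes, their classes and the lists were chosen with earlier results of these data known. All 35 are named, and of each list the first 4 tested genes and up to 6 called genes a direction were eligible for naming, of which a part is given.

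Tests on counts used edgeR 4.0.16 (R 4.3.3), with filterByExpr (minimum count 10, total 15), TMM scaling and the quasi-likelihood test within each experiment, and over 11 libraries for material and interaction. Adjusted p values are Benjamini-Hochberg over all tested genes. Calls needed an adjusted p under 0.05 and 1.5-fold. Standard errors were derived from the test statistic. Alternatives were the likelihood ratio test, DESeq2 1.42.0, other scalings, no filter, limma 3.58.1 on log2(TPM + 1) and log2(TPM + 0.1), leaving out each library, and, chosen after seeing the data, Hspa1a and Hspa1b summed. Counts without members that passed the filter through 1 genotype only were also made after seeing the data. Scripts were tested on simulated data. Total counts were 14940787 to 29947977 per library. Gene spans and shared stretches came from GENCODE vM21 (GRCm38), promoters from RefSeq. One gene of the AP-1 partners is not reported here.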

Additional observations from a re-analysis of the deposited data

How the results depend on the processing

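No paired analysis was possible because no replicate number occurs in more than 1 group. Members called higher between genotypes rose from 0 to 1 by the likelihood ratio test and 2 by DESeq2 in bulk tumours. In TAM-MG they rose from 0 to 3 by DESeq2. All other alternatives gave 0, with fits on a lone WT library of TAM-MG left aside. At an unadjusted p under 0.05, all 11 libraries in one fit gave 4 higher in bulk tumours in place of 7, and scaling to the same mean log CPM gave 1 lower in place of 2 there and 2 higher in place of 10 in TAM-MG. Leaving out a library gave 5 to 9 higher and 1 to 5 lower in bulk tumours, 3 to 17 higher and 0 to 3 lower in TAM-MG, and 3 to 13 higher and 0 to 5 lower for the interaction. Between materials, members called lower fell from 4 to 2 in WT only and to 2 in KO only, and leaving out a library gave 23 to 25 higher and 3 to 5 lower. The interaction of Nr4a2 reversed to -0.24 with limma on log2(TPM + 1), and Hspa1b between materials reversed to -0.20 without TAM-MG WT 74 (its values without 1 library ran from -0.20 to 5.05); the cause was not tested. Of members with a stated direction, 536 of the values recomputed for the materials and 179, 165 and 100 for bulk tumours, TAM-MG and the interaction kept direction and side of the threshold. Between materials 24 values lost the call, 7 of them with 1 library left out for Hspa1b, and 5 gained it, all of Nr4a3. Over all 35, the sign changed under at least 1 alternative for 11 in bulk tumours, 14 in TAM-MG, 15 for the interaction and 6 between materials. A common biological coefficient of variation of 0.80 in bulk tumours and 0.99 in TAM-MG, with 2 WT libraries, limits what these tests can call.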
